A study of Sus scrofa with 6 samples.

Results

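Pig embryos at the 4-cell stage were examined for 9 genes of the p53 pathway: MDM2, MDM4, CDKN1A, CCNG1, ZMAT3, SESN1, BTG2, TP53INP1 and RRM2B. They were taken by gene symbol from a table of 30376 genes, and all 9 had enough reads to be among the 16056 genes tested. Oocytes had been activated with an electric pulse, so the embryos formed without a sperm, and were then kept for 4 days at 38.5 °C (control, 3 libraries) or at 41.5 °C (high temperature, 3 libraries). Both groups shared the pulses of 120 V, the PZM-5 medium with albumin and an atmosphere of 5% CO2. The genotype field reads WT for controls and HT for the high-temperature group, where it repeats the treatment. Each library was made from poly(A) RNA of about 300 samples at the 4-cell stage, and held 28114005 to 30079385 reads assigned to genes. Nothing in the labels ties the replicates to separate cultures, so every p-value given here reflects how far these libraries scatter, and that scatter may be technical.

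The p53 protein is a transcription factor that is held at a low level by the ubiquitin ligase MDM2 and its partner MDM4. When DNA is damaged or a cell is otherwise stressed, p53 escapes this control and switches on genes that stop the cell cycle, supply nucleotides for repair, limit growth signalling or start cell death. MDM2 is itself a target, which closes a negative feedback loop. In the cleaving embryo most transcripts come from the oocyte until the embryonic genome becomes active, so an mRNA level there can hold both stored and new copies.

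The labelled stage was checked against marker genes. All 13 oocyte and early embryo markers had reads, with a summed level of 13021 to 16971 CPM (the reads of a gene relative to its library size, which was scaled by the TMM method) in controls and 11202 to 16140 CPM at high temperature. Of 18 cumulus and granulosa cell markers 17 were in the table, and AMH, FSHR, CYP11A1, INHA and FOXL2 had no reads in any library. The summed level of that list was 44.7 to 76.7 CPM in control embryos against 55.4 to 90.3 CPM in heated embryos, and most of it was NR5A2. The 12 stromal, endothelial and blood markers summed to 12.3 to 15.1 CPM and 11.3 to 14.2 CPM, with LUM at 0 reads. The 6 markers of the later blastocyst lineages summed to 81.1 to 106 CPM in control embryos against 59.1 to 76.3 CPM in heated embryos. These sums did not overlap between the groups. They were nearly all NANOG, while CDX2 had no reads in 5 of the 6 libraries.

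Of the 9 genes, 0 passed the test between the temperatures, and CDKN1A, the gene of the cyclin-dependent kinase inhibitor p21, stood out by size. CDKN1A was 1.59-fold higher at 41.5 °C, and its 3 heated libraries all lay above the 3 controls. The other 8 differed by 1.17-fold or less, with overlapping groups. By the edgeR quasi-likelihood test, adjusted over all genes, 0 of 16056 genes were called (0%), and 297 had an unadjusted p below 0.05 (1.85%; 0.99% in the higher direction). CDKN1A was the 1 among the 9 with such a p. DESeq2 called 6 genes and limma called 0, and none of the 9 was among those called. The groups did not overlap in 1 of the 9 genes, against 7.71% of all genes tested (3.66% with the heated libraries above and 4.05% with them below). The edgeR adjusted p was 0.999923 for each of the 9, and their median log2 fold change was -0.10 against -0.02 for all genes tested. The heated mean was above the control in 1 gene and below it in 8, where 52.5% of all genes tested were below. Scaled by the plain library total instead of TMM, 4 lay above and 5 below, as they also did on the deposited FPKM scale. The plain total moved the median of all genes from -0.02 to 0.08, and lists and genes with small differences shifted as well. The RNA is that of whole embryos, so a lower value can mean fewer cells with a transcript or less of it per cell, and these cannot be told apart.

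**Figure D1:**
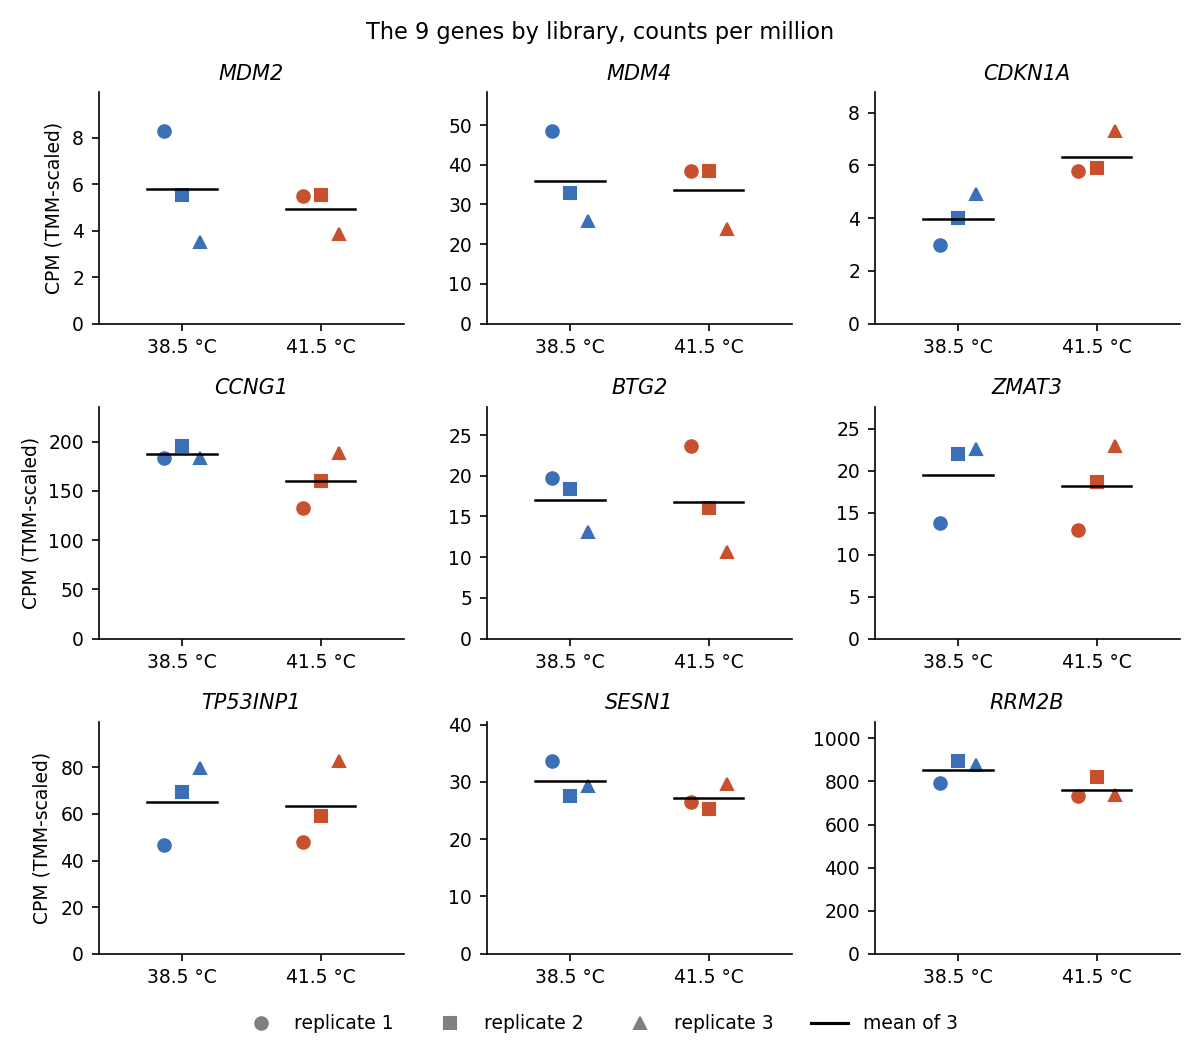
CPM (vertical axis, TMM-scaled, from 0) of each of the 9 genes in the 3 control libraries at 38.5 °C (blue) and the 3 high-temperature libraries at 41.5 °C (red), with symbols for the replicate number and a line for the mean of 3. The groups separate for CDKN1A, between 4.91 and 5.78 CPM, and overlap for the other 8 genes.

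**Figure D2:**
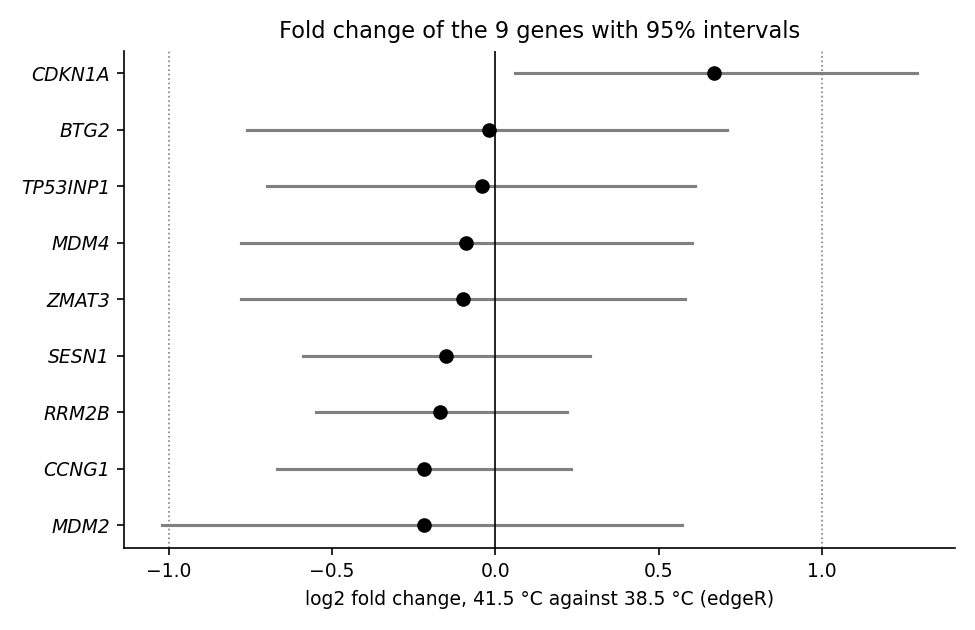
Log2 fold change of the 9 genes, 41.5 °C against 38.5 °C (horizontal axis), as points with 95% intervals from edgeR, and dotted lines at a 2-fold change in either direction. The interval of CDKN1A runs from 0.06 to 1.29, and those of the other 8 hold 0.

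Transcript levels were compared between genes on the deposited TPM scale, which is corrected for length. RRM2B was the most abundant of the 9, at 224 ± 27.8 TPM (SD over 6 libraries), followed by CCNG1 at 98.6 ± 16.8 TPM. TP53INP1 (14.9 ± 4.64 TPM), SESN1 (11.7 ± 1.06), BTG2 (8.25 ± 2.01) and MDM4 (7.81 ± 1.5) formed a middle tier. CDKN1A (3.24 ± 1.15 TPM), ZMAT3 (2.80 ± 0.852) and MDM2 (1.94 ± 0.519) were the lowest. The ranges of neighbours in this order were apart between RRM2B and CCNG1, between CCNG1 and TP53INP1 and between MDM4 and CDKN1A. Within the middle tier and within the lowest tier neighbours overlapped, so their order there is not larger than the spread of the libraries. The mean of RRM2B was at or above that of 98.6% of the genes in the table, and that of MDM2 at or above 71.9%.

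**Figure D3:**
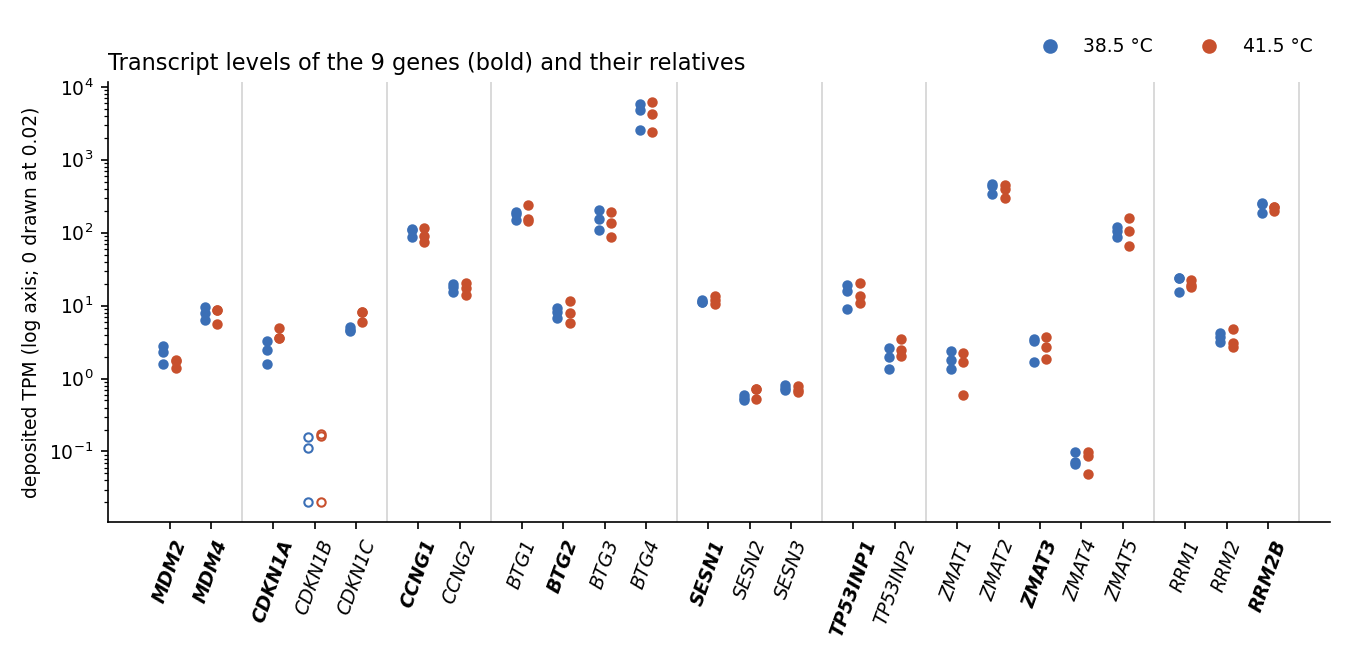
Deposited TPM on a log axis for the 9 genes (bold names) and their relatives, grouped by family, with 1 point per library (blue 38.5 °C, red 41.5 °C; open points belong to a group in which a library is listed at 0, drawn at 0.02). BTG4 is the highest, from 2411 to 6177 TPM, and RRM2B lies above RRM1 and RRM2 in every library.

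The negative regulators of p53 came first in the pathway. MDM2, the ubiquitin ligase that marks p53 for destruction, lies on chromosome 5 (33105717 to 33137602, plus strand, Sscrofa11.1). It was at 8.31, 5.55 and 3.52 CPM in control replicates 1, 2 and 3, and at 5.48, 5.52 and 3.86 CPM in the high-temperature replicates. All heated values lay inside the control range. The log2 fold change was -0.22 (95% interval -1.02 to 0.57), and 0.13 without control replicate 1, the library with the highest value. Omitting control replicate 3 gave -0.46, and omitting high-temperature replicate 3 gave -0.04. On the TPM scale the highest control was replicate 2, at 2.76 TPM against 2.34 in replicate 1, so the order of the control libraries depends on the unit for this gene with 7 annotated transcripts.

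MDM4, the relative that binds p53 and represses its activity, lies on chromosome 9 (65175488 to 65219747). It stood at 48.6, 33.0 and 25.9 CPM in control embryos against 38.4, 38.4 and 23.9 CPM in heated embryos. As with MDM2, replicate 3 was the lowest library of each group. Its log2 fold change was -0.09 (-0.78 to 0.60), 0.02 scaled by the plain library total, 0.19 without control replicate 1 and 0.14 when high-temperature replicate 3 was omitted. Per length, MDM4 exceeded MDM2 in all 6 libraries, by 2.84 to 4.88 times. The ratio was 3.70 ± 0.745 in controls and 4.59 ± 0.410 at high temperature (SD, n = 3), and the groups overlapped.

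TP63, a transcription factor of the p53 family known from oocytes and named after its values were seen, had 295 to 640 reads per library. It was at 11.3, 13.7 and 18.6 CPM in control embryos against 10.8, 14.8 and 20.9 CPM in heated embryos. The groups overlapped, and replicate 1 was the lowest and replicate 3 the highest library of each. TP73, of the same family and also named afterwards, had 0 to 5 reads per library.

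Among the genes of cell-cycle arrest, CDKN1A (chromosome 7, 32354776 to 32363771, plus strand, 1 annotated transcript) encodes p21, which blocks cyclin-dependent kinases. It had 78, 116 and 148 reads in the control libraries and 169, 170 and 224 in the high-temperature libraries. In CPM these were 3.0, 4.0 and 4.91 against 5.78, 5.91 and 7.32, or 3.97 ± 0.957 and 6.34 ± 0.856 (SD, n = 3). The groups did not overlap in CPM, in TPM (1.56 to 3.22 against 3.55 to 4.97) or in CPM on the plain library total (2.59 to 5.13 against 5.85 to 7.97). The gap between them was narrow: the exact Poisson 95% interval of the highest control count was 125 to 174 reads and that of the lowest heated count 144 to 196, for counting error only.

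The log2 fold change of CDKN1A was 0.67 (standard error 0.27, 95% interval 0.06 to 1.29), with an unadjusted p of 0.0361 and an adjusted p of 0.999923 by edgeR. It was above 0 in all 14 alternative analyses, from 0.51 to 0.86, with unadjusted p from 0.00547 to 0.0974 and adjusted p from 0.413 to 0.99999. In none of them did it pass the adjusted threshold. All 14 reuse the same libraries, so they are not independent of each other. As the groups did not overlap, leaving out a library could hardly have changed the direction. RNA of the mitochondrial genome took 24.2%, 21.5% and 22.0% of the reads of control replicates 1 to 3 and 27.3%, 25.5% and 24.5% of those of the heated ones, also with no overlap. Summed cumulus and granulosa markers, mostly NR5A2, were at 76.7, 60.5 and 44.7 CPM in control replicates 1 to 3. They were at 90.3, 76.4 and 55.4 CPM in the heated ones, with overlapping groups. The heated library was the higher at each number, though the labels name no pairing. In each group this sum was highest in replicate 1, where CDKN1A was lowest. The summed markers of the later blastocyst lineages, nearly all NANOG, were at 106, 91.8 and 81.1 CPM in control replicates 1 to 3. In the heated replicates they were at 76.3, 60.3 and 59.1 CPM, with no overlap. The part of any of these in the CDKN1A values was not tested.

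CDKN1A has a pair of relatives. CDKN1C, the gene of p57 and an imprinted gene expressed from the maternal copy in mammals, was at 7.92, 6.41 and 6.81 CPM in control embryos against 11.6, 8.65 and 10.6 CPM in heated embryos. Its groups did not overlap either, with a log2 fold change of 0.55 (0.03 to 1.07), an unadjusted p of 0.0420 and no call after adjustment. CDKN1B, the gene of p27, had 0 to 8 reads per library. Per length, CDKN1C exceeded CDKN1A in every library, by 1.57 to 2.97 times.

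CCNG1 (chromosome 16, 60349255 to 60356737, minus strand) encodes cyclin G1, which brings a phosphatase to MDM2. It was at 183, 196 and 183 CPM in controls, a spread of 7.43 CPM (SD, n = 3), and at 133, 160 and 188 CPM at high temperature. Heated replicate 3 lay within the controls and the other two below them. The log2 fold change was -0.22 (-0.67 to 0.23), below 0 in all 14 alternatives, and -0.10 without high-temperature replicate 1. Its relative CCNG2 was at 37.2 ± 6.29 CPM in control embryos against 34.1 ± 5.04 CPM in heated embryos, and per length CCNG1 was 4.30 to 7.28 times as abundant.

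BTG2 (chromosome 9, 64033853 to 64037795, plus strand) encodes an antiproliferative protein that recruits mRNA deadenylases. It varied strongly between libraries, at 19.7, 18.4 and 13.1 CPM in control embryos against 23.7, 16.0 and 10.7 CPM in heated embryos. The heated libraries spanned a wider range than the controls and enclosed it, and the log2 fold change was -0.02 (-0.76 to 0.71), changing sign in 8 of 14 alternatives, among them the plain library total (0.07) and the omission of high-temperature replicate 3 (0.25). BTG2 was the scarcest of its family. Per length BTG1 exceeded it by 19.5 to 25.2 times, BTG3 by 15 to 25.1 times and BTG4, the egg member that directs decay of maternal mRNA, by 208 to 1066 times. BTG4 was at 3766 ± 1076 CPM in control embryos against 3456 ± 1351 CPM in heated embryos, BTG1 at 248 ± 60.7 and 237 ± 76.2 CPM, and BTG3 at 181 ± 76.7 and 148 ± 62.2 CPM.

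ZMAT3 (chromosome 13, 117113272 to 117147639, minus strand) encodes a zinc finger protein that binds RNA and regulates splicing. It was at 13.8, 22.0 and 22.6 CPM in control embryos against 12.9, 18.7 and 23.0 CPM in heated embryos. In both groups replicate 1 stood well below the other libraries. The log2 fold change was -0.10 (-0.78 to 0.58), and it was 0.10 without high-temperature replicate 1 and 0.03 without control replicate 3. Among the genes named alike, ZMAT2 (539 ± 147 and 464 ± 119 CPM) and ZMAT5 (77.8 ± 21 and 75.8 ± 34.6 CPM) were more abundant. ZMAT1 was at 6.79 ± 0.185 CPM in control embryos against 5.32 ± 1.95 CPM in heated embryos, where each library lay below the controls (log2 fold change -0.35, unadjusted p = 0.298) while the groups overlapped in TPM, and ZMAT4 had 5 to 11 reads per library.

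Stress and growth control were represented by TP53INP1 and SESN1. TP53INP1 (chromosome 4, 41747654 to 41766688, plus strand), whose protein promotes p53 phosphorylation and autophagy, was at 46.7, 69.3 and 79.6 CPM in control embryos against 47.9, 59.1 and 82.9 CPM in heated embryos. The groups were nearly superimposed, with a log2 fold change of -0.04 (-0.70 to 0.61) that changed sign in 8 of 14 alternatives, among them the plain library total (0.04) and the omission of control replicate 3 (0.13). The relative TP53INP2 was at 6.27 ± 1.36 CPM in control embryos against 7.99 ± 1.81 CPM in heated embryos, and per length TP53INP1 exceeded it by 4.34 to 8.07 times.

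SESN1 (chromosome 1, 75056731 to 75170374, minus strand) encodes sestrin 1, an inhibitor of the growth kinase mTORC1. Its libraries lay close together, at 33.7, 27.5 and 29.2 CPM in control embryos against 26.5, 25.3 and 29.7 CPM in heated embryos. The log2 fold change was -0.15 (-0.59 to 0.29), and 0.08 on the log2(FPKM + 1) scale. SESN1 was the main sestrin transcript: it exceeded SESN2 by 14.9 to 23.1 times and SESN3 by 13.5 to 19.4 times per length. SESN2 was at 2.76 ± 0.333 and 2.88 ± 0.496 CPM, and SESN3 at 5.71 ± 0.515 and 5.11 ± 0.646 CPM. SESN1 was also the sole gene of the 9 whose span overlapped other counted genes. ARMC2, on the other strand, overlaps it by 25012 bases and had 1009 to 1625 reads per library, and the kit does not mark strand, so reads in the overlap may belong to either gene.

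RRM2B (chromosome 4, 34823869 to 34859777, plus strand) encodes the p53-inducible small subunit of ribonucleotide reductase, the enzyme that makes deoxynucleotides, and serves cells outside S phase. It had 20640 to 26375 reads per library, at 794, 897 and 876 CPM in control embryos against 731, 821 and 735 CPM in heated embryos. The means were 856 ± 54.5 and 762 ± 50.8 CPM (SD, n = 3), and heated replicate 2 lay above control replicate 1. The log2 fold change was -0.17 (-0.55 to 0.22) and below 0 in all 14 alternatives.

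RRM2B was far more abundant than the other subunits of its enzyme. RRM2, the small subunit of dividing cells, was at 2.68 to 4.77 TPM, so RRM2B exceeded it by 42.0 to 83.3 times. RRM1, the large subunit that pairs with either, was at 15.6 to 24.0 TPM, and RRM2B exceeded it by 9.95 to 11.9 times. The ratio to RRM1 was nearly constant, at 11.0 ± 0.732 in controls and 10.9 ± 0.952 at high temperature. The ratio to RRM2 was 63.8 ± 18.4 and 66.7 ± 21.9 (SD, n = 3), and in both groups it was lowest in replicate 1 and highest in replicate 3. In CPM, RRM1 was at 51.0 ± 6.32 and 45.5 ± 2.62, and RRM2 at 12.3 ± 3.16 and 10.8 ± 3.87.

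The intervals limit how large a change between these libraries could have been missed. They rest on the same scatter as the p-values, which may be technical, so they need not hold for separate cultures. For 7 of the 9 genes the 95% interval excluded a 2-fold change in either direction, which held for 49.6% of all genes tested. The exceptions were CDKN1A, whose upper end was a 2.45-fold rise, and MDM2, whose lower end was 0.492 times the control level. A 4-fold change was excluded for all 9, and for 91.6% of all genes.

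The order of the libraries within a group was compared between the temperatures. In CPM, for each of the 9 genes the lowest library had the same replicate number in both groups, which held for 61.6% of all genes tested. Replicate 1 was lowest for CDKN1A, CCNG1, ZMAT3, TP53INP1 and RRM2B (28.1% of all genes), replicate 3 for MDM2, MDM4 and BTG2 (27.9%), and replicate 2 for SESN1 (5.56%). For CCNG1 control replicates 1 and 3 were both at 183 CPM after rounding, and in TPM the lowest heated library of SESN1 was replicate 1 (10.6 TPM). For 6 genes the highest library matched as well, against 44.3% of all genes. It was replicate 3 for CDKN1A, ZMAT3 and TP53INP1 (27.6% of all genes), replicate 1 for MDM4 and BTG2 (26.7%) and replicate 2 for RRM2B (6.28%). The largest deviations from a group mean were those of MDM2 in controls, 0.61 in replicate 1 and -0.63 in replicate 3 on the log2 scale. Over all libraries of both groups the highest CPM was 2.36 times the lowest for MDM2 and 2.44 times for CDKN1A. Reads of 18S ribosomal RNA, which poly(A) selection should leave out, varied along the same numbers, at 105, 347 and 554 CPM in control embryos against 218, 422 and 968 CPM in heated embryos. Their part in the values of the 9 genes was not tested.

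**Figure D4:**
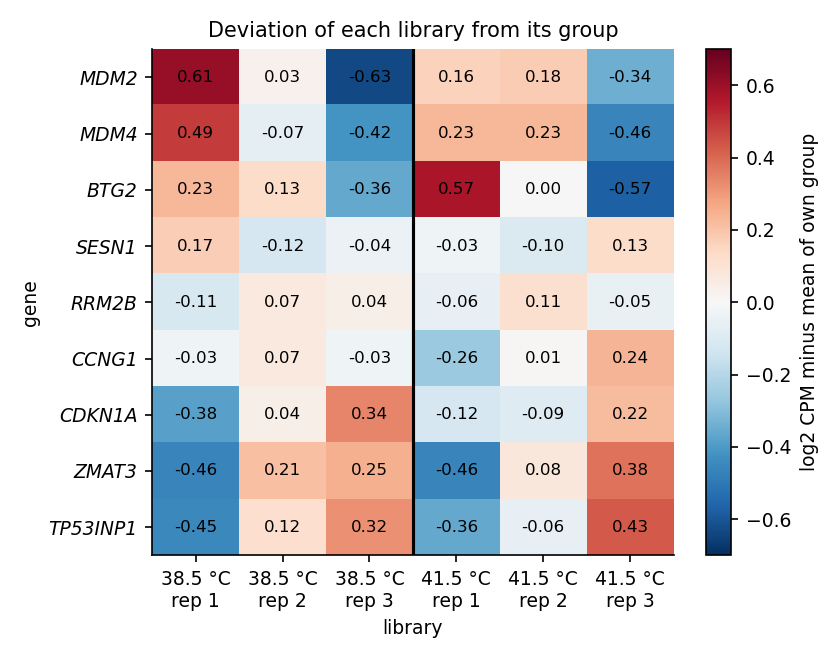
Log2 CPM of the 9 genes (rows) in each library (columns) minus the mean of its own temperature group, in color from -0.7 (blue) to 0.7 (red) with the value printed. MDM2, MDM4 and BTG2 are lowest in replicate 3 of each group, and ZMAT3 and TP53INP1 are lowest in replicate 1.

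The pattern of MDM2 over the 6 libraries was compared with that of 6293 genes of at least 10 CPM. The most similar were GNPNAT1 (Pearson r = 0.996 of log2 CPM), PPP1CB (0.994) and NAA50 (0.994). As 1078 genes had r above 0.9 and all share the same libraries, this is a description only. GNPNAT1 was at 180, 128 and 85.6 CPM in control embryos against 127, 123 and 88.0 CPM in heated embryos.

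The rest of the pathway was read from lists with 183 further genes, of which 176 were in the table and 156 were tested. By edgeR 0 of the 156 were called and 2 had an unadjusted p below 0.05, CDKN1C and FANCC, where 1.85% of all genes had such a p. Of the 156, the heated mean was higher in 67 and lower in 89 (median -0.05 on the log2 scale). In CPM the groups did not overlap in 16 of them (10.3%, against 7.71% of all genes), 6 higher and 10 lower. The relatives of the 9 genes described above made up 13 of the 156, with 3 higher and 10 lower (median -0.12, and 5 higher and 8 lower by library total), and their median was 0.02 without control replicate 1.

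Relatives of p53 and regulators of its stability or activity numbered 32 tested, 14 higher and 18 lower (median -0.05), with 0 called. By library total 22 were higher and 10 lower (median 0.05), and the TMM-scaled median was 0.03 when high-temperature replicate 3 was omitted. NPM1, a nucleolar protein that can bind MDM2, was at 1749 ± 302 CPM in control embryos against 1591 ± 204 CPM in heated embryos (SD, n = 3), and RPL5, a ribosomal protein that inhibits MDM2 when free, at 337 ± 133 and 314 ± 89.8 CPM. The smallest unadjusted p were those of TP53BP2, a partner of p53 in cell death (4.97 ± 0.698 and 6.94 ± 1.93 CPM), and TRIM28, a corepressor that works with MDM2 (11.0 ± 1.61 and 13.3 ± 1.75 CPM), and both had overlapping groups. Of 15 kinases that phosphorylate p53 or the MDM proteins 6 were higher and 9 lower (median -0.03, and 11 higher and 4 lower by library total), with 0 called; the median was 0.10 without high-temperature replicate 3. CSNK1A1, a casein kinase that binds MDM4, was at 384 ± 111 and 375 ± 104 CPM, and CHEK1, the checkpoint kinase, at 148 ± 22.2 and 132 ± 19.1 CPM. AKT1, which phosphorylates MDM2 (1.99 ± 1.03 and 3.12 ± 0.707 CPM), and DYRK2, a kinase of p53 (1.93 ± 0.570 and 1.49 ± 0.237 CPM) had the smallest unadjusted p of that list.

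Other targets of p53 formed 4 lists with 58 tested genes, of which 0 were called, 35 lay higher and 23 lower, and the median on the log2 scale was 0.11. In CPM the groups did not overlap in 6 of them (10.3%, against 7.71% of all genes): GADD45A, RPS27L and DGKA, which were also apart in TPM, and PCNA, FANCC and NINJ1, which were not. Cell-cycle and growth targets had 9 higher and 5 lower of 14 (median 0.11, and -0.12 without control replicate 3 or without high-temperature replicate 1). GADD45A, which binds p21 and halts division after damage, was at 8.31, 5.76 and 7.50 CPM in control embryos against 12.7, 8.51 and 9.55 CPM in heated embryos, all heated libraries above the controls (log2 fold change 0.51, interval -0.08 to 1.11). RPS27L, a ribosomal protein relative, was at 376, 246 and 213 CPM in control embryos against 209, 200 and 175 CPM in heated embryos, all below the controls (log2 fold change -0.52, interval -1.09 to 0.05). TOB1, an antiproliferative relative of the BTG proteins, was at 25.3 ± 2.33 and 29.9 ± 7.74 CPM.

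Cell death targets had 8 higher and 4 lower of 12 tested (median 0.09, and -0.15 without high-temperature replicate 1). TRIAP1, an inhibitor of apoptosis, was the most abundant at 763 ± 124 CPM in control embryos against 669 ± 91.2 CPM in heated embryos, and CASP6 was at 29.0 ± 20.2 and 30.5 ± 11.4 CPM. PMAIP1, the gene of the death protein NOXA, was at 4.43 ± 0.726 and 3.59 ± 0.669 CPM. BBC3, the gene of PUMA, and the receptor gene EDA2R, both named after their values were seen, had no reads in any library.

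Repair targets had 3 higher and 8 lower of 11 (median -0.22, and -0.13 by library total). Without high-temperature replicate 3 the median was -0.11, and without control replicate 1 it was -0.13. PCNA, the sliding clamp of DNA polymerases, was at 5172, 6749 and 6557 CPM in control embryos against 4040, 5132 and 4788 CPM in heated embryos, all heated libraries below the controls (log2 fold change -0.40, interval -0.84 to 0.03). FANCC, of the crosslink repair pathway, was at 6.73, 9.93 and 8.30 CPM in control embryos against 4.48, 6.11 and 5.53 CPM in heated embryos (-0.63, interval -1.21 to -0.05, unadjusted p = 0.0367). In TPM the groups overlapped for both genes. RAD51C, a recombination factor, was at 95.5 ± 15.4 and 82.3 ± 17.3 CPM. Targets in metabolism and autophagy had 15 higher and 6 lower of 21 (median 0.25, and -0.10 without high-temperature replicate 1). The most abundant of these were SAT1, an enzyme of polyamine breakdown, at 1676 ± 777 and 1393 ± 579 CPM, and BLOC1S2 at 199 ± 102 and 147 ± 50.3 CPM. DGKA, a diacylglycerol kinase, had 0 to 20 reads per library, and PLTP, a phospholipid transfer protein, was at 2.75 ± 0.285 and 3.39 ± 0.535 CPM.

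Genes that p21 represses through the DREAM complex, a repressor of cell-cycle genes, had 7 higher and 21 lower of 28 (median log2 fold change -0.13, and 11 higher and 17 lower by library total), with 0 called. In CPM the groups did not overlap in 6 of them (21.4%, against 7.71% of all genes), 2 higher and 4 lower, and in TPM the groups of all these 6 overlapped. PCNA, among the 4 lower, is also in the list of repair targets, and CHEK1 is also in the kinase list, so these lists are not separate. The split was 13 higher and 15 lower without high-temperature replicate 1 (median -0.03) and likewise without control replicate 3 (-0.06). CCNB1, the mitotic cyclin B1, was at 602, 697 and 653 CPM in control embryos against 486, 490 and 519 CPM in heated embryos, with no overlap in CPM and some in TPM (log2 fold change -0.39, unadjusted p = 0.0501). CDK1, its kinase, was at 751 ± 486 and 541 ± 209 CPM, a spread far larger than the difference. Of 12 subunits of the complex 2 were higher and 10 lower (median -0.15), and without control replicate 1 the split was 6 and 6 (median -0.01). RBBP4, a histone-binding protein, was at 319 ± 76.7 and 298 ± 42.3 CPM, and LIN52, of the core shared with other cell-cycle complexes, at 39.5 ± 2.11 and 36.4 ± 9.21 CPM. LIN37, of the same core, was at 15.4 ± 5.00 and 21.6 ± 3.84 CPM, and RBL1, the pocket protein p107, at 15.1 ± 0.381 and 11.7 ± 2.17 CPM with no overlap in CPM and some in TPM.

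**Figure D5:**
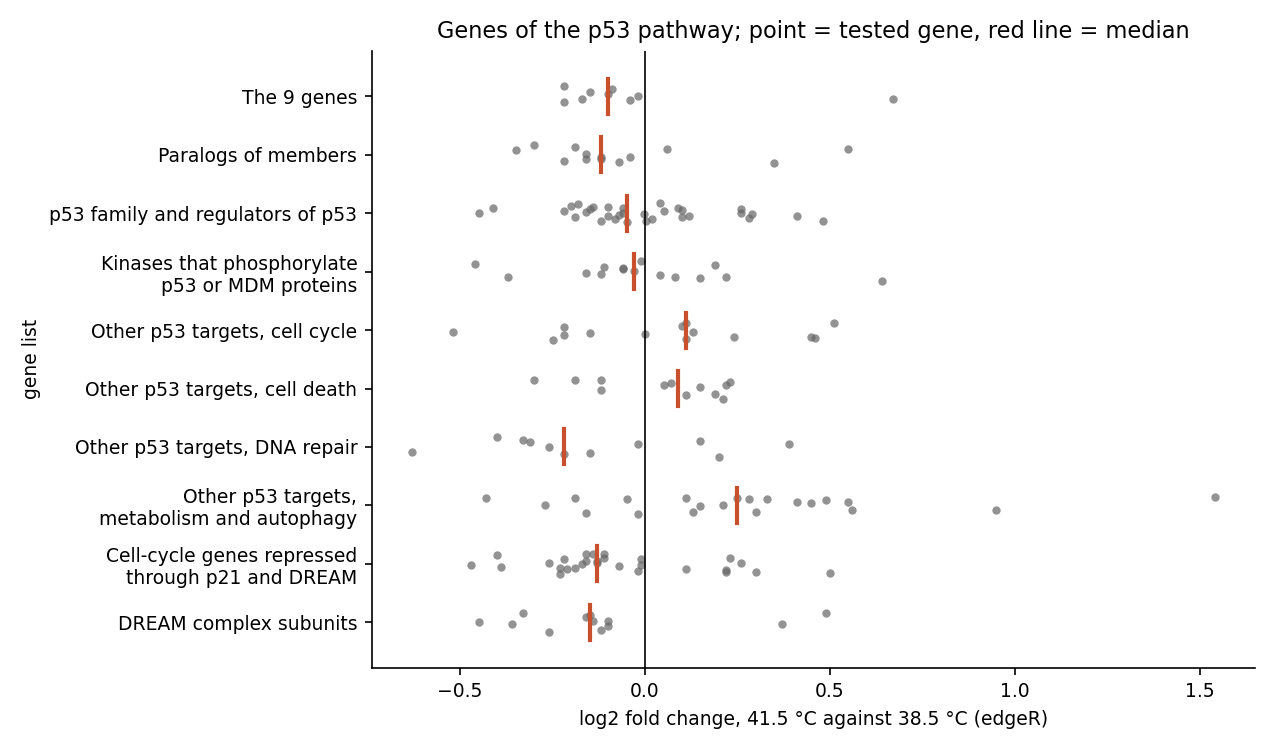
Log2 fold change, 41.5 °C against 38.5 °C (horizontal axis), of every tested gene (grey points) in each list (rows), with the list median as a red line. The points spread on both sides of 0 in each list, and the medians run from -0.22 (repair targets) to 0.25 (metabolism and autophagy), while those of p53 regulators (-0.05) and kinases (-0.03) are above 0 by library total, at 0.05 and 0.08.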

How the data were processed

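The authors deposited a whole-number read count for each gene, not normalized, and beside it FPKM (corrected for length and depth) and TPM (corrected for length, with 1 total in each library), per the file headers. The per-library tables hold the authors' deposited coverage signal, used here for no value, and gene positions. StringTie 2.1.3b, Bowtie2, HISAT, HISAT2 2.1.0, Trimmomatic 0.38 and the build Sscrofa11.1 appear in the submitters' processing notes with no role. The counting of reads, overlapping genes included, is by a tool and rule not given in the sources used here. Table columns were assigned by name and replicate number, and checked against the FPKM of each sample's own table (99.4% to 99.5% of genes within 1e-05, at most 27.9% in any other column). Rows without a symbol (24 mitochondrial RNAs, 0.527% to 0.658% of reads) were kept.

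Counts were tested with edgeR 4.0.16 (R 4.3.3): TMM scaling, default expression filter, quasi-likelihood test with group as the single term, Benjamini-Hochberg over 16056 genes, threshold 0.05. Log2 fold changes are high temperature minus control, with 95% intervals. CPM was computed on TMM-scaled library sizes. Alternatives used DESeq2 1.42.0, limma 3.58.1 on log2(FPKM + 1) and log2(FPKM + 0.1) with a mean FPKM of at least 0.5 or no filter, other scalings, no count filter, a replicate block and omission of each library. Scripts were tested on simulated data. Depth was 28114005 to 30079385 reads.

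The 9 genes and the lists were chosen with earlier results of these data known. Named were the 9 genes, all their relatives with reads, in each other list the 2 most abundant genes and the 2 with the smallest p, and the 3 genes most like MDM2. TP63, TP73, BBC3, EDA2R, NINJ1 and ARMC2 were added after their values were seen. Where a marker symbol stood on 2 rows the row with more reads was used. Positions and overlaps came from the deposited tables and equal those of RefSeq. Not every gene of the lists is reported here.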

Additional observations from a re-analysis of the deposited data

How the results depend on the processing

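None of the 9 genes was called in any of the 14 alternatives, and CDKN1A, CCNG1 and RRM2B kept their direction in all of them. The alternatives share the same libraries. For CDKN1A, whose groups did not overlap, omitting a library could hardly have changed its direction. The number of genes called rose from 0 to 1 with no filter on low counts, 6 with DESeq2 and 3 under a replicate block; it was 0 without each library in turn. Under the replicate block 1485 genes had an unadjusted edgeR p below 0.05, against 297 in the main test. CDKN1A then had a log2 fold change of 0.69 (standard error 0.19, edgeR unadjusted p = 0.00547, adjusted p = 0.413). Deviations from the group means correlated between same-numbered libraries at r = 0.52, 0.01 and 0.59 over 16056 genes. Control replicate 1 and high-temperature replicate 3 were at -0.57, and control replicate 3 and high-temperature replicate 1 at -0.52. High-temperature replicate 2 correlated best with control replicate 1 (0.14). The labels name no batch or pairing, so the main test has no term for the number, and variation along it stays in the scatter.

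By library total alone MDM4 was at 0.02, BTG2 at 0.07 and TP53INP1 at 0.04, and the medians were -0.02 for the 9 genes, 0.05 for regulators of p53, 0.08 for kinases and -0.04 for DREAM subunits. On log2(FPKM + 1), SESN1 was at 0.08, BTG2 at 0.02 and TP53INP1 at 0.04, and the medians were -0.01 for the 9 genes, 0.04 for regulators, 0.06 for kinases, -0.06 for repair targets and -0.06 for DREAM subunits. On log2(FPKM + 0.1) these genes were at 0.09, 0.02 and 0.04, and the medians at -0.01 for the 9 genes, 0.05 for regulators, 0.07 for kinases and -0.07 for DREAM subunits. With no FPKM filter the genes were at 0.08, 0.02 and 0.04, and the medians at -0.01, 0.04 for regulators and -0.04 for DREAM subunits. The cause of these shifts was not tested.

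Leaving out each library in turn gave log2 fold changes of -0.46 to 0.13 for MDM2, -0.25 to 0.19 for MDM4, -0.30 to 0.10 for ZMAT3, -0.36 to 0.25 for BTG2, -0.25 to 0.13 for TP53INP1, -0.21 to -0.06 for SESN1, -0.32 to -0.10 for CCNG1, -0.22 to -0.11 for RRM2B and 0.51 to 0.86 for CDKN1A. Medians ranged from -0.16 to -0.06 for the 9 genes, -0.17 to 0.02 for their relatives, -0.12 to 0.03 for regulators of p53, -0.08 to 0.10 for kinases, -0.17 to -0.03 for genes repressed through DREAM and -0.18 to -0.01 for DREAM subunits. For the other targets they ranged from -0.12 to 0.11 (cell cycle), -0.15 to 0.16 (cell death), -0.31 to -0.11 (repair) and -0.10 to 0.30 (metabolism and autophagy). At this depth the counting intervals of the nearest CDKN1A libraries of the groups overlapped.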
